A study of Homo sapiens with 34 samples.

Results

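The genes described here are 9 members of the network that keeps human pluripotent stem cells undifferentiated, namely POU5F1, NANOG, SOX2, PRDM14, ZSCAN10, ZFP42, L1TD1, DPPA4 and TDGF1. They were taken by symbol from a table of 20255 genes, and all 9 were found, once each, and passed the filter on low values that left 19788 genes for testing. The RNA came from H1, an established human embryonic stem cell line, and from H1 cells led to blood formation without added haematopoietic cytokines. Undifferentiated H1 cells (UD, labelled as untreated) gave 1 sample, and each of the other 11 populations gave 3. The D0 embryoid bodies are labelled BMP4 and hVEGF, and the unsorted D2 and D4 cells and all later cells are labelled hVEGF, although the growth text places the change to VEGF alone at day 3. From D6 the cells were sorted by CD43, the sialophorin that marks the first blood cells, into CD43+ and CD43- fractions on D6, D9 and D12, and into CD43+/CD45+ and CD43-CD45- cells on D16, which are also called CD43+ and CD43- below. All samples share 1 cell line. The study's methods call the replicates independent biological ones, and the labels do not say whether they were separate cultures.

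POU5F1 (also called OCT4), SOX2 and NANOG are transcription factors that bind together at each other's genes and at many shared targets, and in doing so hold the pluripotent state. PRDM14, ZSCAN10 and ZFP42 (REX1) are further DNA-binding partners or targets of that core. L1TD1 is an RNA-binding protein, DPPA4 a chromatin protein that pairs with DPPA2, and TDGF1 (CRIPTO) a cell surface co-receptor for the ligand Nodal. When cells enter mesoderm and then blood, this network is shut down. The question here is in which order its genes were lost, how far, and whether blood and non-blood fractions differed.

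The deposited values are tag counts normalised for GC content and rounded, and every sample holds the same set of values in a different gene order, with a sum of 17856940, a median of 197 and 1292 genes at 0. A value therefore gives the place of a gene within its sample, the sequencing depth is unknown, and levels are compared within a gene and never between genes. At the top of the scale the steps are coarse. Replicates correlated across genes at 0.952 to 0.9874 on the log2(value + 1) scale. The sort is visible in SPN, which encodes CD43 and lay between 2338 and 9460 in CD43+ samples and between 18 and 328 in CD43- samples. A list of 7 blood markers summed to 27795 or more in every CD43+ sample and to 2973 or less in every CD43- sample. In such bulk RNA, fewer cells expressing a gene and less RNA per cell cannot be told apart. A change is called here when its limma adjusted p was below 0.05 and its fold change, on the log2(value + 1) scale, above 4.

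**Figure D1:**
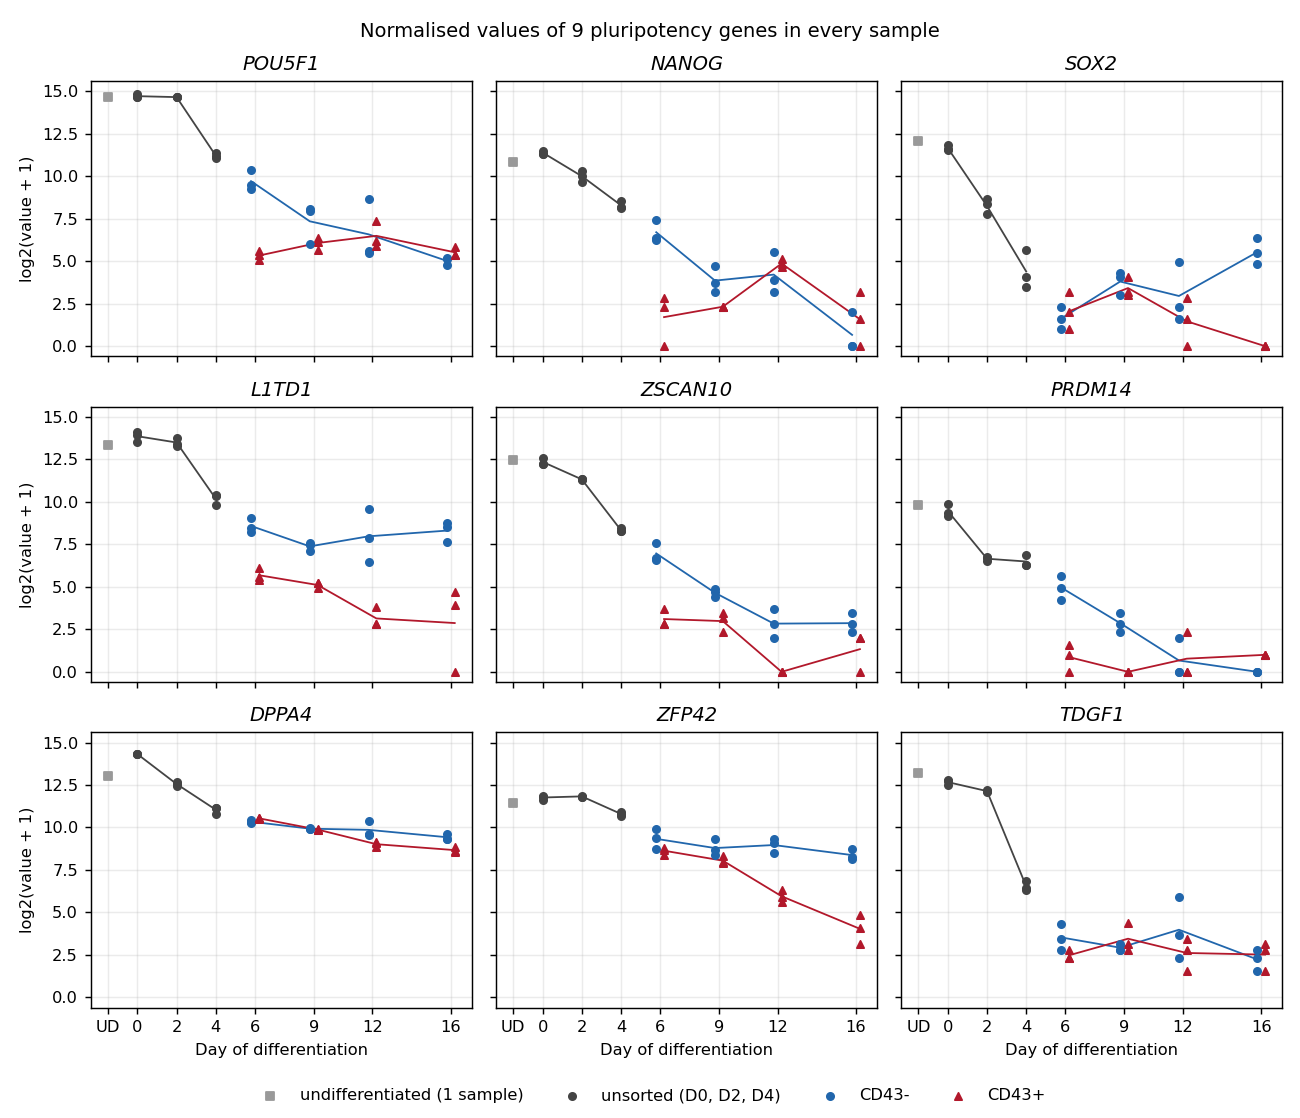
Each panel plots log2(value + 1) of 1 gene against day of differentiation, with a point for every sample and lines through the means (grey for unsorted D0, D2 and D4 cells, blue circles for CD43-, red triangles for CD43+, a grey square for the 1 undifferentiated sample). SOX2 is already down on D2, ZFP42 still lies at its D0 level on D2, and the red points separate below the blue ones on D6 for POU5F1, NANOG, ZSCAN10, PRDM14 and L1TD1 but from D9 on for ZFP42.

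The core factors left in sequence, SOX2 first. SOX2 had 4380 in undifferentiated cells, and 3048, 3656 and 3000 in the D0 samples. On D2 it had 325, 215 and 396, which is 9.65% of the D0 mean and does not overlap D0 (log2 fold change -3.41, SE 0.73, adjusted p = 0.000524). On D4 it had 16, 49 and 10, a further fall of 3.85 on the log2 scale (SE 0.73, adjusted p = 0.000128). SOX2 was thus the only member under 10% of its D0 level on D2, and by D4 it stood at 0.773%.

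POU5F1, in contrast, did not move in the first days. It had 25776 in undifferentiated cells, 25776, 28960 and 25776 on D0, and 25776 in all 3 D2 samples. This identical value is the place of rank 50 of the table, so small differences near it cannot be resolved. On D4 the gene had 2618, 2328 and 2176, 8.85% of D0, with no overlap with D2 (log2 fold change -3.44, SE 0.55, adjusted p = 1.36e-05). In D6 CD43+ cells only 40, 47 and 32 were left, against 712, 1328 and 618 in D6 CD43- cells.

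NANOG fell in smaller steps. It had 1808 in undifferentiated cells, 2913, 2584 and 2574 on D0, 1026, 814 and 1288 on D2, and 376, 296 and 274 on D4. The populations D0, D2 and D4 do not overlap, yet neither step was called (adjusted p = 0.121 and 0.0541), whereas D4 against D0 was (log2 fold change -3.10, SE 0.69, adjusted p = 0.000493, or 0.0541 with 0.1 added before the log). In the D6 CD43+ samples NANOG had 0, 4 and 6, and in the D6 CD43- samples 83, 174 and 76. NANOG shares near-identical sequence with NANOGP8, a processed copy that is in the table with a D0 mean of 406 ± 22.5 (SD, n = 3), and how reads were divided between them is uncertain. NANOGP8 had 76.7 ± 15.3 on D4 and 1.67 ± 2.08 in D6 CD43+ cells.

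The starts of SOX2 and NANOG are shown because POU5F1 and SOX2 proteins are known to bind an octamer and a neighbouring SOX motif, and because these genes fell at different times. Of the 9 members, 6 have a promoter in the RefSeq set used (GRCh38.p14), which leaves out POU5F1, PRDM14 and TDGF1. In the 250 bases before the start, on both strands, the octamer ATGCAAA was found for NANOG and SOX2 and in 3.94% of all 35116 promoters, and the SOX motif CATTGT for NANOG and in 9.29%. The SOX-OCT composite, a SOX motif and an octamer with 1 base between them, which overlaps both single motifs, was found in 2 promoters of the set, NANOG being 1 of them. L1TD1, ZSCAN10, DPPA4 and ZFP42 held none of these letters in this window. Below, both stretches are read on the plus strand, which is the strand of each gene, with the motif in capitals: in NANOG the reverse complements TTTGCAT and ACAATG, in SOX2 the octamer.
NANOG, chr12:7789232-7789345: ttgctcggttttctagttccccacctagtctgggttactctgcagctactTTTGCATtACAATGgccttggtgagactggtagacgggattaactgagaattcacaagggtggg
SOX2, chr3:181711775-181711881: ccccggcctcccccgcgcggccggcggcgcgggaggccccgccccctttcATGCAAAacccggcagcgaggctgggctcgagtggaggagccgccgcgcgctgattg
A match is only a stretch of letters, and no binding was measured here. SOX2 itself lies on chromosome 3 from 181711924 to 181714436 (GRCh38), inside the longer SOX2-OT transcript on the same strand, and NANOG on chromosome 12 from 7787794 to 7799141. The NANOG stretch lies inside that span, before the RefSeq start, because GENCODE places the first start of the gene further upstream. POU5F1 lies on chromosome 6 from 31164337 to 31180731 and overlaps TCF19 on the opposite strand. TCF19 lay between 72 and 786 in all samples. Its means were 740, 695 and 482 in D9, D12 and D16 CD43+ cells and 314, 149 and 126 in CD43- cells. Whether counting used strand is not stated in the sources used here, and the part of TCF19 in the POU5F1 values was not tested.

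Among the partner factors, PRDM14 followed SOX2 most closely at first. PRDM14, a PR domain protein that represses differentiation genes, had 915 in undifferentiated cells, 572, 643 and 943 on D0, and 90, 106 and 104 on D2. This early loss to 13.9% of D0 was called (log2 fold change -2.80, SE 0.54, adjusted p = 0.000178), though not with 0.1 in place of 1 added before the log (adjusted p = 0.067). On D4 it had 117, 78 and 77, which overlaps D2, so PRDM14 paused between D2 and D4 (log2 fold change -0.16, SE 0.54). The drops of SOX2 and PRDM14 on D2 were separated by less than their joint SD.

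ZSCAN10, a zinc finger factor that binds with SOX2 and POU5F1, had 5703 in undifferentiated cells and 4716, 4844 and 6248 on D0. On D2 it had 2552, 2636 and 2499, below every D0 sample but without a call (log2 fold change -1.03, SE 0.45, adjusted p = 0.0755). It had 350, 306 and 310 on D4, 6.11% of D0 (D4 against D2, log2 fold change -2.99, SE 0.45, adjusted p = 6.25e-06). In the order of drops from D0 to D4, ZSCAN10, L1TD1, POU5F1, DPPA4, NANOG and PRDM14 followed each other at 4.02, 3.68, 3.50, 3.27, 3.10 and 2.97 on the log2 scale, each within the joint SD of the next.

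ZFP42, a zinc finger factor widely used as a marker of undifferentiated cells, was the last to fall under 25% and under 10% of its D0 level, though DPPA4 ended higher in D16 CD43+ cells. It had 2805 in undifferentiated cells, 3110, 3750 and 3606 on D0, and 3606, 3751 and 3570 on D2, so the D0 and D2 samples overlap. On D4 it still had 1788, 1896 and 1666, 51.1% of D0, where each of the other 8 members was under 13%. ZFP42 was also the only member not called between D0 and D4 (log2 fold change -0.97, SE 0.31, adjusted p = 0.011), since its fold change was under 4. Its D4 drop was separate from that of PRDM14, the next in order, by 2 log2 units against a joint SD of 0.54.

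L1TD1, the RNA-binding member, had 10430 in undifferentiated cells, 12000, 15847 and 17344 on D0 and 10824, 10076 and 14002 on D2, with D0 and D2 overlapping. On D4 it fell to 1352, 1298 and 898 (log2 fold change -3.31, SE 0.72, adjusted p = 0.00061). TDGF1 kept 4506, 4286 and 4779 on D2 after 5779, 6693 and 7154 on D0, and then dropped to 85, 116 and 80 on D4. This loss of the Nodal co-receptor was the steepest step of any member between D2 and D4 (log2 fold change -5.60, SE 0.61, adjusted p = 3.87e-08, 48.4-fold). TDGF1 overlaps LRRC2 on the opposite strand, which had a D4 mean of 191 ± 24.7 (SD, n = 3), and the sources used here do not say whether counting used strand.

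DPPA4, the chromatin member, declined by similar amounts from D0 to D2 and from D2 to D4. It had 8267 in undifferentiated cells but 20400 in all 3 D0 samples, and 6002, 5552 and 6580 on D2. The identical D0 value is the place of rank 66, so small differences near it cannot be resolved. DPPA4 declined to 2263, 2310 and 1807 on D4, by 1.76 log2 units in the first step (SE 0.15, adjusted p = 2.71e-10) and by 1.51 in the second (SE 0.15, adjusted p = 3.85e-09). Both steps passed the p threshold with small errors and missed the 4-fold threshold, and D4 against D0 was called (log2 fold change -3.27, SE 0.15). With 1 undifferentiated sample, its lower level there has no replicate check.

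Counted over the members, 2 of 9 were called lower on D2 against D0 (SOX2 and PRDM14), where 3.48% of all genes tested were called lower and 4.4% higher. From D2 to D4, 5 of 9 were called lower (POU5F1, SOX2, L1TD1, ZSCAN10 and TDGF1), against 4.53% of all genes called lower and 4.97% higher. The median change of the members was -1.03 and then -2.99 on the log2 scale, beside -0.01 and -0.03 over all genes tested. No member was called higher in either step. Over both steps together, D4 against D0, 8 of 9 were called lower, all but ZFP42, beside 7.01% of all genes. Below 10% of the D0 mean lay 1 member on D2, 5 on D4 and 8 in either D6 fraction, beside 2.43%, 4.6%, 7.58% (D6 CD43+) and 5.94% (D6 CD43-) of the genes with a D0 value.

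**Figure D2:**
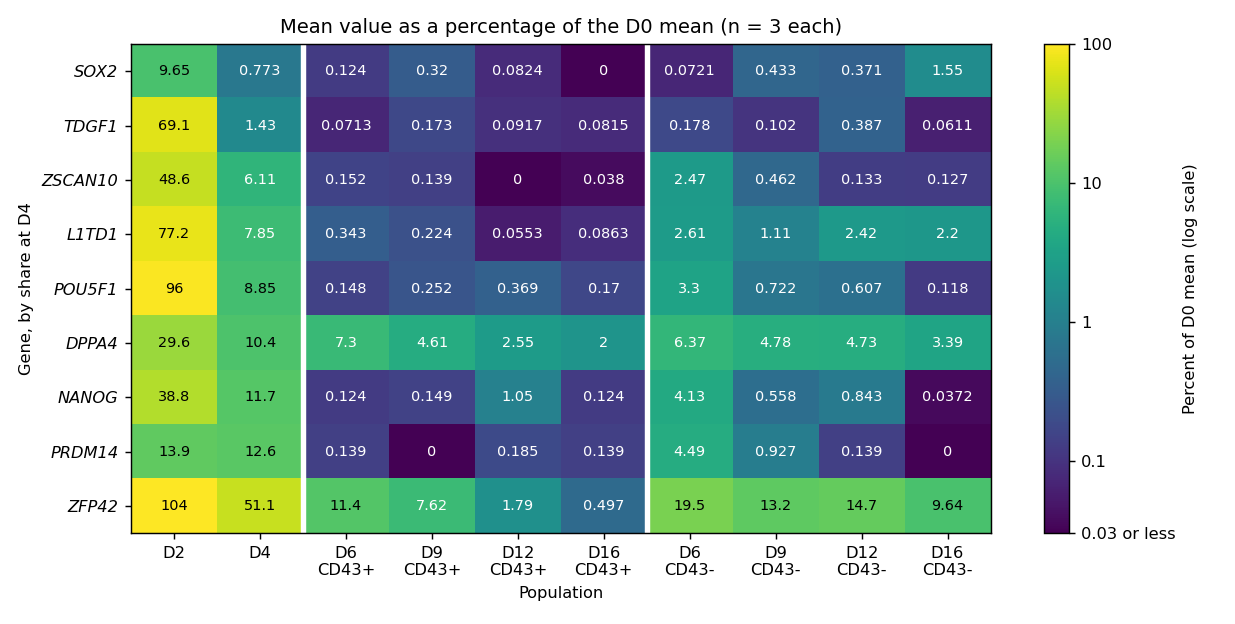
Colours (log scale) and printed numbers give the mean of 3 samples as a percentage of the D0 mean for each gene and population, unsorted on the left, CD43+ in the middle and CD43- on the right, with genes ordered by their share on D4. On D4 shares run from 0.773% for SOX2 to 51.1% for ZFP42, and on D16 ZFP42 stands at 0.497% in CD43+ and 9.64% in CD43- cells.

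The CD43+ fraction of D6, set against unsorted D4 cells, showed the largest median loss of any step. In this step time and sorting cannot be told apart. Of the 9 members, 8 were called lower in D6 CD43+ cells than on D4, DPPA4 being the exception, where 7.73% of all genes were called lower and 6.8% higher. The median change was -4.50 on the log2 scale, beside 0.03 over all genes. NANOG (log2 fold change -6.58, SE 0.69), POU5F1 (-5.88, SE 0.55), PRDM14 (-5.63, SE 0.54) and ZSCAN10 (-5.23, SE 0.45) fell most. In these cells PRDM14 had 2, 0 and 1, ZSCAN10 6, 6 and 12, TDGF1 4, 6 and 4, and L1TD1 41, 46 and 68. For SOX2, already at 16, 49 and 10 on D4, the further fall of 2.34 was lost as a call without D4 replicate 2 (-1.72) or without D6 CD43+ replicate 2 (-1.81).

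DPPA4 and ZFP42 kept measurable levels in the same cells. DPPA4 had 1516, 1506 and 1445 in D6 CD43+ samples and 1268, 1254 and 1374 in D6 CD43- samples, so the blood fraction was slightly higher in every sample (log2 difference 0.20, SE 0.15, adjusted p = 0.268). ZFP42 had 442, 416 and 339 in D6 CD43+ and 424, 654 and 962 in D6 CD43- samples, and the fractions overlap.

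In the CD43- fraction the same step, also from unsorted D4 cells, was shallow. From D4 to D6 CD43- cells 2 of 9 members were called lower (SOX2 and TDGF1), against 2.77% of all genes called lower and 4.94% higher, with a member median of -1.54. All 9 were lower in sign, and at a 2-fold instead of a 4-fold threshold 6 passed. SOX2 reached 4, 2 and 1, and TDGF1 10, 19 and 6, levels close to those of the CD43+ fraction.

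Set side by side on D6, 5 of 9 members were called lower in CD43+ than in CD43- cells, where 7.85% of all genes were. These were NANOG (log2 difference -4.99, SE 0.69, adjusted p = 1.13e-06), POU5F1 (-4.38, SE 0.55, adjusted p = 2.32e-07), PRDM14 (-4.09, SE 0.54, adjusted p = 5.98e-07), ZSCAN10 (-3.86, SE 0.45, adjusted p = 7.48e-08) and L1TD1 (-2.90, SE 0.72, adjusted p = 0.00145). For each of them the 3 CD43+ samples lie below all 3 CD43- samples. Seen against D0, all 9 members were called lower in both D6 fractions, beside 10.7% of all genes in CD43+ and 9.41% in CD43- cells. In D6 CD43+ cells 7 members were under 1% of their D0 level, beside 2.84% of all genes, and in D6 CD43- cells 2 were, SOX2 and TDGF1, beside 2.37%. Marker lists of other cell types differed between the fractions too: a list of 6 trophectoderm or amnion markers summed to 699 to 1228 in CD43+ and 7720 to 12167 in CD43- samples on D6, 6 germ cell markers to 601 to 1176 and 1448 to 5674, and 7 mesenchymal markers to 58724 to 155056 and 187087 to 224806. The mesenchymal and germ cell lists were mixed. COL1A2 had 37186, 48056 and 90700 in CD43+ and 48056 in all 3 CD43- samples. COL1A1 had 18751, 18751 and 37166 in CD43+ and 25836, 29000 and 37166 in CD43- samples, which overlap. The other mesenchymal markers were lower in every CD43+ sample than in any CD43- sample. In the germ cell list NANOS3, TFAP2C and SOX17 (CD43- mean 2244) were called lower in CD43+ cells. PRDM1 and DND1 were not, and DAZL was at 0 in both fractions. The part of such cell types in the CD43- values was not tested.

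**Figure D3:**
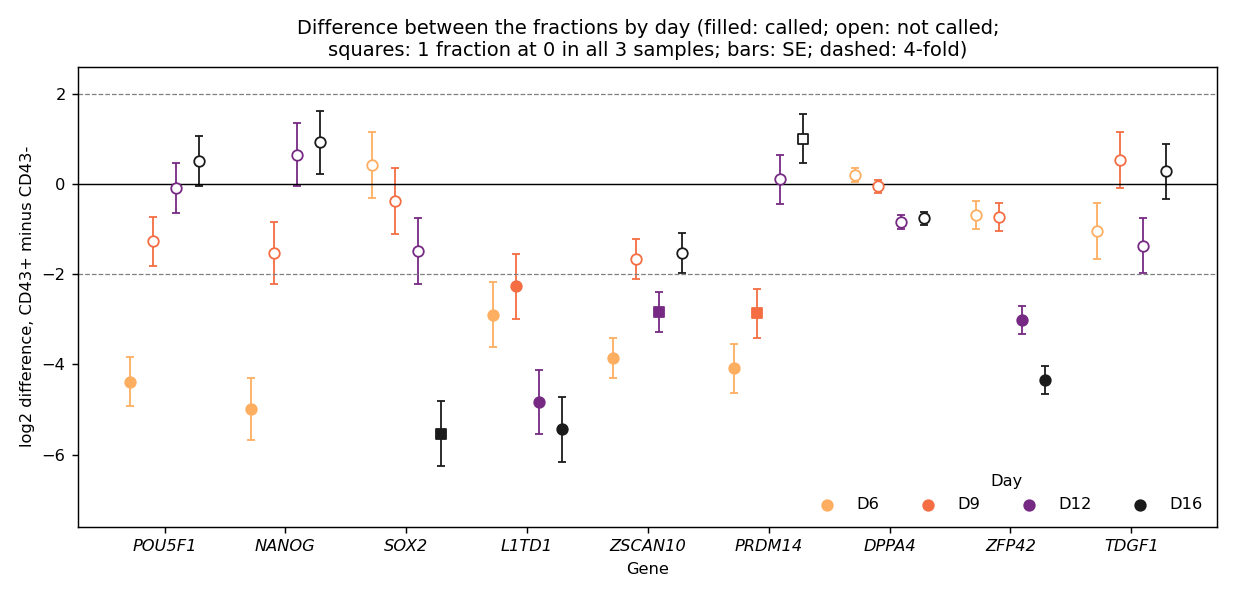
Points give the log2 difference CD43+ minus CD43- with its SE for each gene on D6, D9, D12 and D16, filled where called, square where 1 fraction was at 0 in all 3 samples (where the size depends on the added 1). For POU5F1, NANOG and PRDM14 the difference runs from between -4 and -5 on D6 to above 0 on D16. On D16 it is 1 or less and not called, and NANOG and PRDM14 rest on values of 8 or less. For L1TD1 and ZFP42 the difference reaches -5.44 and -4.34 on D16.

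After D6 the CD43- cells caught up for some genes. Between D6 and D9, 4 members were called lower in CD43- cells (POU5F1, NANOG, ZSCAN10 and PRDM14) and 0 in CD43+ cells by limma, where 0.657% and 3.97% of all genes were called lower. DPPA4 was the 1 member with an unadjusted p under 0.05 in the CD43+ step. POU5F1 had 267, 63 and 251 in D9 CD43- samples, a fall of 2.36 (SE 0.55), with the second sample well below the others. NANOG had 25, 8 and 12 (log2 fold change -2.85, SE 0.69) and ZSCAN10 28, 20 and 25 (log2 fold change -2.31, SE 0.45). These calls lean on the shared estimate of spread: fitted on the 6 samples alone, 0 of the 4 were called (adjusted p = 0.102 to 0.216). Without D6 CD43- replicate 2 the values were -2.03 for POU5F1, -2.47 for NANOG and -1.74 for PRDM14, and without D9 CD43- replicate 2 -1.69, -2.50 and -1.82, none of them called. PRDM14 was also not called without D6 CD43- replicate 1 (-2.08) or D9 CD43- replicate 3 (-2.06).

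In the CD43+ fraction the same genes stayed low. POU5F1 had between 32 and 166 in the 12 CD43+ samples of D6 to D16. NANOG rose from 4, 4 and 4 on D9 to 27, 24 and 34 on D12 (log2 fold change 2.54, SE 0.69, adjusted p = 0.00283) and had 8, 2 and 0 on D16 (log2 fold change -3.28, SE 0.69, adjusted p = 0.000427). Even at this D12 level NANOG stood at 1.05% of D0, and with 10 in place of 1 added before the log the rise was 1.44 and not called. With 0.1 added it was 2.78 with an adjusted p of 0.0761. NANOG was the 1 member called higher from D9 to D12 in CD43+ cells and ZSCAN10 and ZFP42 the 2 called lower, beside 8.45% and 6.54% of all genes, and from D12 to D16 NANOG was the 1 member called lower, beside 5.26%. ZSCAN10 was listed at 0 in all 3 D12 CD43+ samples and had 0, 3 and 3 on D16.

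For ZFP42 the fractions parted after D6. In CD43+ cells it had 314, 236 and 248 on D9, 49, 80 and 58 on D12 and 16, 28 and 8 on D16, falling by 2.09 from D9 to D12 (SE 0.31, adjusted p = 2.28e-06), a fold change just past 4 that was under 4 without D9 CD43+ replicate 1 (-1.97), without D12 CD43+ replicate 1 (-1.94) or under median-of-ratios scaling (-1.93). In CD43- cells it kept 332, 645 and 402 on D9, 542, 642 and 359 on D12 and 418, 281 and 310 on D16. The fractions, overlapping on D6, no longer overlapped on D9, where CD43+ cells were lower by 0.74 without a call (SE 0.31, adjusted p = 0.0374), and were apart by 3.01 on D12 (SE 0.31, adjusted p = 2.12e-09) and 4.34 on D16 (SE 0.31, adjusted p = 1.86e-12). ZFP42 in CD43- cells thus crossed 10% of its D0 level only on D16.

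L1TD1 remained in the CD43- fraction at every later day. It had 172, 139 and 190 on D9, 774, 86 and 234 on D12 and 360, 202 and 434 on D16, between 1.11% and 2.42% of D0. In CD43+ cells it had 36, 29 and 36 on D9, 13, 6 and 6 on D12 and 14, 0 and 25 on D16. L1TD1 was the only member called lower in CD43+ cells on all 4 days, with log2 differences of -2.27 on D9 (SE 0.72), -4.83 on D12 (SE 0.72) and -5.44 on D16 (SE 0.72).

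SOX2 was higher again in late CD43- cells. After 4, 2 and 1 in D6 CD43- cells it had 19, 16 and 7 on D9, 30, 4 and 2 on D12 and 80, 27 and 43 on D16, that is 1.55% of D0. The step from D12 to D16 was called (log2 fold change 2.58, SE 0.73, adjusted p = 0.00505), but not without D12 CD43- replicate 3 (1.90, adjusted p = 0.0515) nor in a fit of those 6 samples alone (adjusted p = 0.0935). In D16 CD43+ cells SOX2 was listed at 0 in all 3 samples, so the fractions do not overlap and no fold is given. SOX2 was the 1 member called higher in this step, and NANOG, from 46, 8 and 14 to 3, 0 and 0, the 1 called lower (log2 fold change -3.54, SE 0.69), beside 4.46% and 5.97% of all genes. SOX2 also serves neural cells, and 4 neural markers are in the table. LHX2 rose with it in CD43- cells, from 2, 0 and 2 on D12 to 24, 19 and 16 on D16 (log2 fold change 3.29, SE 0.74, adjusted p = 0.000743). PAX6 had 28, 6 and 6 and then 54, 14 and 19, MAP2 322, 40 and 53 and then 54, 49 and 45, and NES, a neural and mesenchymal filament, 5188, 2155 and 3132 and then 1050, 988 and 1098. Whether such cells carried the SOX2 signal was not tested.

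DPPA4 kept the highest share of D0 of any member in D12 and D16 CD43+ cells, whereas ZFP42 kept a higher share in CD43- cells. It had 976, 908 and 938 in D9 CD43+, 454, 535 and 570 in D12 CD43+ and 385, 380 and 458 in D16 CD43+ samples, and in CD43- samples 968, 999 and 960 on D9, 1360, 743 and 794 on D12 and 650, 638 and 786 on D16. The CD43+ samples lay below all CD43- samples on D12 and D16, by 0.84 (SE 0.15, adjusted p = 1.12e-05) and 0.76 (SE 0.15, adjusted p = 4.78e-05), less than 4-fold. It ended at 2% of D0 in CD43+ and 3.39% in CD43- cells. TDGF1, by comparison, was between 2 and 20 in every sorted sample but 1, the D12 CD43- sample with 60.

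The last levels against D0 were called lower for all 9 members in both D16 fractions, where 15.4% of all genes were called lower in CD43+ and 12.2% in CD43- cells. In CD43+ cells 8 members were under 1% of D0, all but DPPA4, beside 3.52% of all genes. In CD43- cells 5 were, beside 2.73%, namely POU5F1 (35, 26 and 34), NANOG (3, 0 and 0), ZSCAN10 (6, 4 and 10), PRDM14 (listed at 0 in all 3) and TDGF1 (4, 2 and 6). POU5F1 had 40, 40 and 57 in D16 CD43+ samples, each above all 3 CD43- samples. The limma difference was small and not called (log2 difference 0.51, SE 0.55, adjusted p = 0.425). Its SE rests on the spread within all replicated populations.

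On the later days the CD43 comparison called 2 of 9 members lower in CD43+ cells on D9 (L1TD1 and PRDM14, which was listed at 0 in all 3 D9 CD43+ samples), 3 on D12 (L1TD1, ZSCAN10 and ZFP42) and 3 on D16 (SOX2, L1TD1 and ZFP42). Of all genes 12.8%, 14.4% and 13.6% were called lower on those days. The change of the CD43 difference from D6 to D16, tested as an interaction, was called for 7 of 9 members, 4 upward and 3 downward, beside 9.5% and 9.69% of all genes. It was upward, the gap closing, for NANOG (5.91, SE 0.98), POU5F1 (4.89, SE 0.77), ZSCAN10 (2.33, SE 0.64) and PRDM14, and downward, the gap opening, for ZFP42 (-3.64, SE 0.44), L1TD1 (-2.54, SE 1.01) and SOX2. No size is given for PRDM14 and SOX2, each at 0 in 1 of the D16 fractions. The value for L1TD1 (adjusted p = 0.0403) was not called when any of 7 of the 12 libraries was left out, CD43- replicates 1 and 3 and CD43+ replicates 2 and 3 of D6 (-2.47, -2.38, -2.61 and -2.33), CD43- replicates 1 and 3 of D16 (-2.45 and -2.32) and CD43+ replicate 2 of D16 (-1.11). That for ZSCAN10 was just under 4-fold (adjusted p = 0.0145 and 0.0149) without D16 CD43+ replicate 2 or 3.

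Of the D12 CD43- samples, replicate 1 stood apart for these genes. It was the highest of the 3 for 8 of 9 members, all but ZFP42, whereas it was the highest for 39.6% of all genes tested. In any other replicated library at most 7 members were the highest of their population. POU5F1 had 397 there against 44 and 48, NANOG 46 against 8 and 14, and L1TD1 774 against 86 and 234. The same library was highest for all 8 RNA-binding and translation regulators and for all 5 primitive streak markers tested, whose sum was 182 against 4 and 5, and had the lowest blood marker sum, 882 against 1374 and 2973. Other lists followed in part or not. Replicate 1 was highest for 9 of 16 core and partner transcription factors. Their sum was the lowest of the 3 (7482 against 7596 and 11018), with MYC at 2084 against 3232 and 6556. Highest sums of the 3 were also found there for chromatin and telomere genes (10709 against 7870 and 7096, 5 of 9 genes highest). The same held for ligands and related genes (1130 against 653 and 665, 6 of 10). Surface and epithelial genes had 34720 against 30961 and 20906 (8 of 14). Replicate 1 was highest for only 1 of 10 naive-state genes. It was highest for 3 of 4 neural, 3 of 5 endothelial, 4 of 6 trophectoderm or amnion, 2 of 6 germ cell, 2 of 5 endoderm and 0 of 7 mesenchymal markers. From D9 to D12 in CD43- cells PRDM14 alone was called lower, beside 2.8% of all genes (10, 4 and 6 to 3, 0 and 0), but not without D9 replicate 1 or D12 replicate 2 or 3 (-1.90, -1.86 and -1.86), and in a fit of these 6 samples it was not either. Without D12 replicate 1 ZSCAN10 was called lower too (-2.25), and the counts of the D12 fraction comparison stayed between 3 and 4 members for any library left out. The cause of this difference was not tested.

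**Figure D4:**
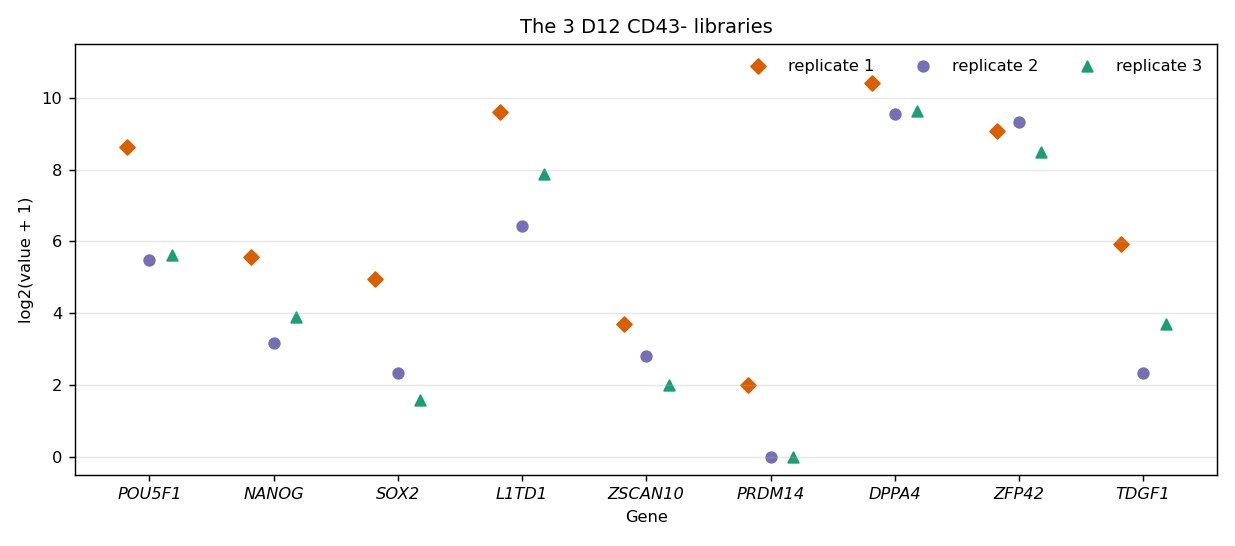
log2(value + 1) of the 9 genes is plotted for the 3 D12 CD43- libraries, 1 symbol per replicate. Replicate 1 (diamonds) is highest for every gene except ZFP42, with POU5F1 at 397 against 44 and 48.

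The rest of the network was followed through 6 lists of 68 different genes, of which 66 were tested, all but ARGFX and DPPA5. DPPA3 is in 2 of the lists. From D0 to D2 10 were called lower and 6 higher, and from D2 to D4 18 and 2. From D4 to D6 CD43+ these counts were 25 and 3, and from D4 to D6 CD43- 14 and 4. Of all genes, 3.48%, 4.53%, 7.73% and 2.77% were called lower in these 4 comparisons, and 4.4%, 4.97%, 6.8% and 4.94% higher. On D16 50 of 66 were lower than on D0 in CD43+ cells and 3 higher, and in CD43- cells 46 and 5. Of all genes, 15.4% and 12.2% were called lower in these last comparisons, and 14.7% and 12.8% higher.

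Among 16 core and partner transcription factors, 6 were called lower on D2, beside 3.48% of all genes. FOXD3, needed for pluripotent cells, fell on D2 with SOX2, from 390 ± 84.5 to 40.7 ± 38.7 (SD, n = 3). OTX2, a factor of primed pluripotency and anterior development, had 404 ± 125 on D0, 961 ± 56.2 on D2 and 324 ± 14.8 on D4, and then 5.33 ± 3.06 in D6 CD43+ cells. SALL1 held 114 ± 7.51 in D16 CD43- and 5.67 ± 5.69 in D16 CD43+ cells, and SALL4 and PHC1 kept means of 1493 and 2244 in D16 CD43- cells.

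Of 8 RNA-binding and translation regulators, POLR3G, a subunit of RNA polymerase III, stood at 13.9% of D0 on D2 and 1.73% on D4, below L1TD1 on both days. ESRP1, an epithelial splicing factor, stood at 75.4% and 8.14%, with 304 ± 51.2 on D4 and 0 in all 3 D6 CD43+ samples, while D6 CD43- samples had 90, 241 and 84. LIN28A, which blocks let-7 maturation, still had 14852 ± 937 on D4 and 8016 ± 1648 in D6 CD43+ cells. Its relative LIN28B and the mRNA-binding IGF2BP1 kept means above 1000 in both D16 fractions, 1019 and 3621 in CD43+ and 1273 and 4216 in CD43- cells.

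Of 9 chromatin and telomere genes, 3 were called lower from D4 to D6 CD43-, beside 2.77% of all genes. TERT, the telomerase catalytic subunit, had 412 ± 79.2 in D6 CD43+ and 14.7 ± 13.0 in D6 CD43- cells (log2 difference 5.22, SE 0.62), the reverse of the 5 members called on that day. TET1, which oxidises methylated cytosine, ended at 2603 ± 237 in D16 CD43- cells, beside 2667 ± 311 on D0, and at 32.0 ± 6.93 in D16 CD43+ cells.

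Of the 10 naive-state genes tested, several are shared with other tissues, and they did not follow the members. TBX3, also a mesodermal and cardiac factor, rose from 2, 6 and 4 on D0 to 2847, 3348 and 3164 on D2. KLF2 and KLF4, which also act in endothelium and myeloid cells, had 4348 ± 1026 and 7733 ± 965 in D16 CD43+ cells from D0 means of 8.67 and 36.7. High values were not confined to CD43+ cells. In D12 CD43- samples KLF2 had 3603, 3890 and 6460 and KLF4 8272, 6466 and 9722. Among 10 Nodal, FGF and related ligands, receptors and antagonists, 6 were called lower from D2 to D4, when TDGF1 was lost. From D4 to D6 CD43+ 7 were, beside 4.53% and 7.73% of all genes in these steps. FGF4, an autocrine growth factor, had its peak on D2 with 1636, 1007 and 2018. The Wnt antagonist SFRP2 fell from 5893 ± 511 on D2 to 625 ± 73.9 on D4.

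Of 14 surface and epithelial genes, 10 were called lower from D4 to D6 CD43+ and 2 from D4 to D6 CD43-, beside 7.73% and 2.77% of all genes. CDH1, the epithelial cadherin, fell to 17.3 ± 8.39 in D6 CD43+ cells (log2 fold change -6.46, SE 0.40) and had 5005 ± 494 in D16 CD43- cells. On all 4 days 7 or 8 of the 14 were called lower in CD43+ than in CD43- cells. Of all genes, 7.85%, 12.8%, 14.4% and 13.6% were called lower on D6, D9, D12 and D16. Most marker lists of other cell types changed on the days the members fell. The 5 primitive streak markers summed to 23 to 36 on D0, 25628 to 26678 on D2 and 237 to 382 on D4. The 6 trophectoderm or amnion markers summed to 5 to 15, 6580 to 7569 and 19538 to 21051 on these days. The rise of this sum from D2 to D4 was that of HAND1, with means of 2269 and 18294. GATA3, TFAP2A, CDX2 and ISL1 had means of 981, 1482, 1752 and 545 on D2. On D4 theirs were lower, at 892, 400, 786 and 154, and CGA had 6 or less on both days. The part of such cell types in the members' values was not tested.

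By the shape of the profile over the 12 population means (Pearson r of log2(value + 1), each population once, n = 12), the members were alike among themselves, from 0.761 for NANOG and SOX2 to 0.977 for POU5F1 and NANOG. These values share samples and the fall from D0, and are given as a description. Among all other genes tested, the most alike were RP11-148B6.2 to POU5F1 (0.991), SNN to NANOG (0.982), GABRA5 to SOX2 (0.982), RGMA to PRDM14 (0.975) and RP6-24A23.6 to ZSCAN10 (0.984). SFRP2 was the most alike to L1TD1 (0.988), SEPHS1 to DPPA4 (0.99), SLC39A14 to ZFP42 (0.981) and RP11-359M6.1 to TDGF1 (0.99).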

How the data were processed

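RNA-seq of 34 H1 samples was used. Per the labels and the study's methods, the authors aligned reads with bowtie2, estimated tag counts with RSEM on an Ensembl index, and normalised them for GC content with EDASeq. The submitters' notes also name bcl2fastq, STAR 2.7 and hg38. The deposited values are whole numbers on this normalised scale, treated here as a score and not as raw counts, so no count model was run and depth is unknown. The deposited table also gives the GC percent of each gene, as given by the authors, which entered no test. Gene positions are those of GENCODE on GRCh38, and 20148 of 20255 identifiers are in GENCODE release 29. The members and gene lists were chosen with earlier results of these data known.

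A gene was tested when 3 or more samples held 10 or more for it (19788 genes tested, 467 not). limma 3.58.1 (R 4.3.3) was fitted with a mean-variance trend to log2(value + 1) of the 33 samples of the 11 replicated populations in 1 model, with Benjamini-Hochberg adjustment over all genes tested. Calls needed an adjusted p below 0.05 and a fold change above 4, the study's thresholds. The fit was tested on simulated data. Fold changes on this scale understate the change of low genes, and those against a population at 0 are not printed. The genes named were the 9 members, SPN and PTPRC, the genes most alike to each member, the list gene with the largest called change per comparison, and list genes with a D16 mean of at least 1000. Only some of the last 2 kinds are printed, and NANOGP8, TCF19, LRRC2, LIN28A, PAX6, LHX2, MAP2, NES and, on some days, other list genes were chosen after their values were seen.

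Replicate numbers in the labels were checked as pairs between the CD43 fractions. On D6 the deviations of same-numbered samples correlated at 0.198, 0.109 and 0.199, all above 0.1 but low. The numbers were treated as pairs there, which these values do not establish. On D9, D12 and D16 at least 1 pair was below 0.1. Alternatives were other pseudocounts, filters, scaling, thresholds, robust variances, a fit of the compared populations alone, a replicate block and leaving out each library.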

Additional observations from a re-analysis of the deposited data

Results flagged for a closer look

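For 7 of the 9 genes the difference between the CD43 fractions on D16 departed from that on D6 in a test of the difference itself (limma interaction). The adjusted p was 4.52e-06 for PRDM14, 8.97e-06 for POU5F1, 1.58e-05 for NANOG and 0.00351 for ZSCAN10, which were lower in all 3 CD43+ samples on D6 and at or below 57 in both fractions on D16. It was 1.43e-07 for ZFP42, 2.80e-05 for SOX2 and 0.0403 for L1TD1, whose CD43+ samples lay below all CD43- samples on D16. The same held on D16 for ZSCAN10, with 0, 3 and 3 in CD43+ and 6, 4 and 10 in CD43- samples, without a call. PRDM14 on D16 had 1, 1 and 1 in CD43+ samples and 0 in all CD43- samples, values at which no difference can be read.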

How the results depend on the processing

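Levels cannot be given an interval, since the depth of these samples is unknown, and values of a few units rest on the added 1. Adding 0.1 instead gave 1 member called from D0 to D2, 1 from D6 to D9 in CD43- cells, 3 from D12 to D16 in CD43+ cells, 1 between the fractions on D9 and 5 on D16. Adding 10 gave 1 from D4 to D6 CD43-, 0 from D9 to D12 and 0 from D12 to D16 in CD43+ cells, 2, 0 and 0 over the D6 to D9, D9 to D12 and D12 to D16 steps of CD43- cells, and 1 between the fractions on D9. A 2-fold threshold gave 6 from D4 to D6 CD43-, 5 and 3 for the CD43+ steps from D9 to D12 and D12 to D16, 2 and 4 for the CD43- steps over the same days, and 4 when the D9 fractions were compared. Fits of the compared populations alone gave 0, 0 and 1 for the D6 to D9, D9 to D12 and D12 to D16 steps of CD43- cells. A share of 25% of D0 put 2 members below it on D2 and 8 on D4, and a share of 1% put 0 there on D2, 1 on D4, 2 in D6 CD43- and 5 in D16 CD43- cells. Leaving out 1 library gave 1 to 4 members from D6 to D9 in CD43- cells (1 without D6 or D9 replicate 2), 0 to 2 from D9 to D12 in CD43- cells, 3 to 5 from D9 to D12 in CD43+ cells (5 without D9 replicate 2), 2 to 4 from D12 to D16 in CD43- cells (4 without D12 replicate 2) and 1 to 2 from D12 to D16 in CD43+ cells (2 without D12 replicate 1 or 3 or D16 replicate 2). The cause of these changes was not tested. The D2 to D4 and D4 to D6 steps, the D6 and D12 fraction comparisons and those of D4, D6 and D16 with D0 stayed within 1.5 times of their counts in all alternatives run, except as given for D6 CD43-. No printed change reversed its sign, while 20 of 76 uncalled changes that are not printed, none over 0.77 in size, did so under at least 1 alternative. Median-of-ratios scaling moved the median of all genes by up to 0.21 on the log2 scale (D9 fractions) and ended the ZFP42 call from D9 to D12 in CD43+ cells and the L1TD1 interaction. A robust variance estimate, no filter and a filter at 100 changed none of the calls printed. With a replicate block for the pairing of same-numbered samples, 5 members were called between the D6 fractions as without it, also in a fit of the D6 samples alone, which was chosen after seeing the data, and the block changed no other call.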
